A study of Mus musculus with 20 samples.

Results

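The 40 genes described here are interferon-stimulated genes, that is, genes whose transcription rises when a cell receives an interferon signal. They were taken as a fixed list of mouse gene symbols and matched to the Ensembl genes of the deposited count table, in which all 40 of the 40 were found among 39017 genes. The score of a library averaged log2(FPKM + 1) over them, where FPKM stands for fragments per kilobase of exon, scaled to the depth of the library. Of the 40 genes, 28 reached a mean of at least 1 FPKM over the libraries and were tested one by one with 11339 genes in all, while the other 12 were given as levels and by fits without a filter on low values.

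The RNA came from bone marrow of mice into which a T lineage acute lymphoblastic leukemia (T-ALL) had been transplanted. The primary leukemias arose by insertional mutagenesis (IM): pups of the strain C57Bl/6 x 129Sv/Jae F1 were infected with the retrovirus MOL4070LTR, whose insertions into the genome can start a tumor, and the leukemia cells were later passed to irradiated wild-type recipients of the same strain. The donors either carried Mx1-Cre, which a dose of polyinosinic-polycytidylic acid (pIpC) switches on, or were wild-type littermates. The labels do not give the genotype of each leukemia, so no comparison by genotype was made. pIpC itself acts by inducing interferon and the Mx1 promoter that drives Cre is that of an interferon-stimulated gene. The study describes the pIpC dose for the donors only. Leukemia cells from a donor with Mx1-Cre still carry it after transplantation, so it can be present in the marrow that was sequenced.

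Each of the leukemias 20M, 2M, 5C, 73A, 73M, 78A, 8633, JW14 and JW81 had 2 libraries, and the name of one column of the table carries the letters VEH and that of the other the letters DEX. Neither the labels nor the study's text explains these letters, and they are used here only as names. A further leukemia, 4638, also had 2 libraries and was kept apart, since the study's text describes 9 leukemias. Each leukemia is a single transplanted tumor, and the labels do not say whether its libraries came from separate mice, so that p-values between leukemias measure only the spread between the libraries of a leukemia, which may be technical.

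Interferons are secreted proteins that warn cells of infection. Type I interferons bind the receptor of Ifnar1 and Ifnar2, the kinases Jak1 and Tyk2 phosphorylate STAT proteins such as Stat2, and these join Irf9 in a complex that binds the interferon-stimulated response element (ISRE) in promoters, while interferon gamma acts at the gamma-activated sequence (GAS). Among the products are sensors of foreign nucleic acid, antiviral effectors and the proteins that load peptides on MHC class I.

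The libraries held between 8226528 counts (DEX library of JW14) and 201222288 counts (VEH library of 73M). Ribosomal RNA genes were at 21.6 to 64.0 CPM (counts scaled to the library total) in 5 libraries (the VEH library of 5C and, in JW81, JW14, 73M and 20M, the DEX library) and at most 0.0656 in the others, and the main results of the DEX columns are also given with and without the leukemias that hold such a library. Over the 11339 genes the libraries of 8633 and JW14 resembled each other almost as closely as libraries of 1 leukemia did, with Pearson's r across genes of 0.953 to 0.981 in 4 pairs, against a median of 0.969 for the 9 pairs within a leukemia and of 0.874 for 140 other pairs, and the labels give no reason for this. The score of 12 T lineage markers was between 4.37 and 5.77 in the 9 leukemias and 3.54 in 4638. In such bulk samples a lower number of cells of a type and less RNA per cell cannot be told apart.

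The promoters of many of these genes carry the ISRE in plain letters. RefSeq promoter windows, which run from 250 bases before to 50 bases after the start of a transcript (build GRCm38.p6), were matched by symbol for 31 of the 40 genes. Usp18, Zbp1, Dhx58, Mx2, Parp14, Parp9, Oas2, Rtp4 and Mx1 had none. The ISRE core, written GAAANNGAAA and searched on both strands, was present in 15 of the 31 genes (48.4%), against 3.99% of 27025 genes with a promoter window. A longer core, GAAANNGAAANT, was present in 11 (35.5%), against 0.958% of genes, and every match to it also holds the shorter core. The GAS letters TTCNNNGAA were found in 9 (29%), against 9.55% of genes. The stretches below show the core, in capitals, in genes of the main roles: the regulator Stat2, the ubiquitin-like Isg15, the antiviral Ifit1, Ifit3 and Bst2, and the GTPase Igtp. They are written 5′ to 3′ on the strand of the gene.
Stat2, chr10:128270251-128270310, plus strand: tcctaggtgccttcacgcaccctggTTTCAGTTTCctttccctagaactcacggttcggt
Isg15, chr4:156200856-156200915, minus strand: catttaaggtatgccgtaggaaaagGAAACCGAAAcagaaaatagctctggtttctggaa
Ifit1, chr19:34640760-34640819, plus strand: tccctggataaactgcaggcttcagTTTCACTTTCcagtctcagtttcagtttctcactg
Ifit3, chr19:34583382-34583441, plus strand: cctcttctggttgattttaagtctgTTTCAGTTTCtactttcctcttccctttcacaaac
Bst2, chr8:71537562-71537621, minus strand: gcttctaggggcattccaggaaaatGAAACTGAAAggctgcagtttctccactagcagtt
Igtp, chr11:58199497-58199556, plus strand: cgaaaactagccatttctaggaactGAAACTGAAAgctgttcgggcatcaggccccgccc
In Isg15 the core occurs 3 times in overlapping register, at -78, -72 and -66 from the start,, and in Ifit1 a further core lies at -85 beside the printed one at -104. Whether the match in a promoter is used was not measured, and a gene without a match may carry the element outside the window.

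The genes spanned a wide range of levels in the 9 leukemias. The score was 2.20 ± 0.29 (SD, n = 9 leukemias). It was lowest in JW14 (1.74), followed by 5C (1.86) and 8633 (1.90), then 2.26 in JW81, 2.27 in 2M, 2.37 in 20M, 2.40 in 78A and 2.44 in 73A, and highest among the 9 in 73M (2.57). Between the libraries of a leukemia the score differed by at most 0.19, so that the step from 8633 to JW81 was larger than any difference within a leukemia, while JW81 and 2M differed by less than their libraries did. The score of 4638 was 2.99, above all others.

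**Figure D1:**
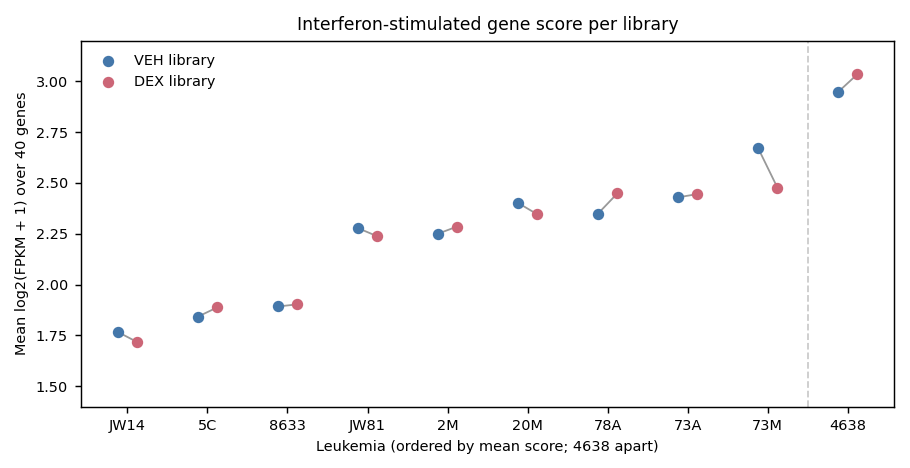
Mean log2(FPKM + 1) over the 40 interferon-stimulated genes (vertical axis) in the VEH library (blue) and the DEX library (red) of each leukemia; a line joins the libraries of a leukemia and the dashed line sets 4638 apart. JW14, 5C and 8633 sit between 1.74 and 1.90 on average, the other 6 between 2.26 and 2.57, and 4638 at 2.99.

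The 3 most abundant genes were Psmb8, Dtx3l and Irf1. Psmb8, a subunit of the immunoproteasome that cuts proteins into peptides for MHC class I, had between 54.2 FPKM in 20M and 92.3 FPKM in 5C, with a median of 72.4 FPKM over 9 leukemias. Dtx3l, a ubiquitin ligase that works as a pair with Parp9, ranged from 7.87 FPKM in 5C to 31.4 FPKM in JW81. At the other end were Ifi44, Oasl2 and Ifit1, with means over the 9 leukemias of 0.0453, 0.105 and 0.170 FPKM, near the level of 3 counts, which for 1 kb of exon amounts to 0.0149 FPKM in the deepest library and 0.365 FPKM in the shallowest. In all, 4 genes stayed under 1 FPKM in each of the 9 leukemias and 5 genes were at 10 FPKM or more in each of them.

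Most of the tested genes differed between leukemias by more than their libraries did. In edgeR, 27 of the 28 tested genes had an adjusted p under 0.05 for the leukemia effect, which is read against the 82.5% of all 11339 genes that did. The exception was Eif2ak2, the kinase PKR that stops translation when it meets double-stranded RNA, at 6.22 FPKM in JW81 to 8.53 FPKM in 73M (adjusted p = 0.0973). The median gene of the list had an SD over leukemias of 0.37 on the log2(FPKM + 1) scale, beside a median difference of 0.16 between the libraries of a leukemia. JW14 was lowest of the 9 for 16 of the 40 genes and 5C for 9, whereas 73M was highest for 12 and JW81 for 9. Among the 28 tested genes these counts were 12, 8, 6 and 6. Over the 11339 tested genes JW14 was lowest for 17.5% and 5C for 14.3%, and 73M was highest for 6.90% and JW81 for 10.3%.

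**Figure D2:**
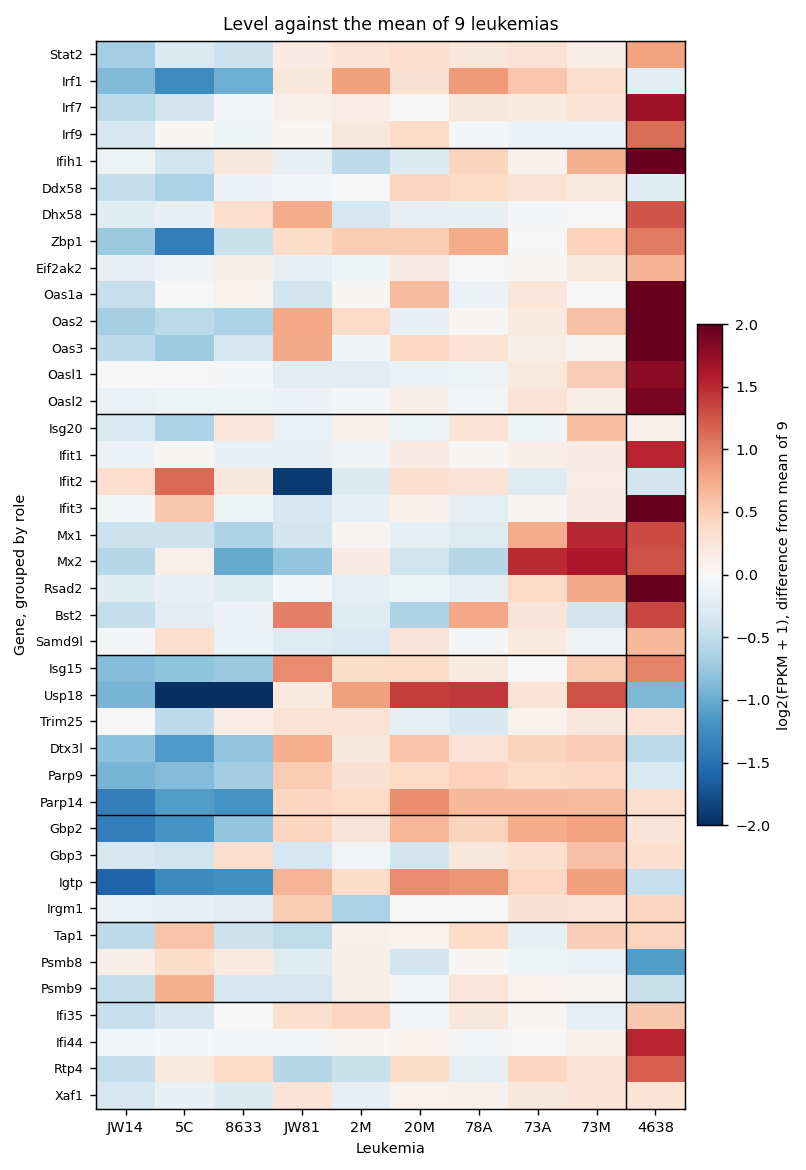
Difference of each gene's log2(FPKM + 1) in a leukemia (mean of 2 libraries) from its mean over the 9 leukemias, in colour from -2 (blue) to 2 (red), with values beyond these limits shown at the limit; rows are the 40 genes by role and columns the leukemias ordered by score, with 4638 apart. Usp18, Igtp, Parp14 and Gbp2 are blue in JW14, 5C and 8633, and Oas1a, Oas2 and Oas3 reach the upper limit in 4638.

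The regulators are transcription factors that act at the promoters of the other genes. Stat2, a part of the ISRE-binding complex, was at 1.84 FPKM in JW14, 4.11 FPKM at the median and 4.77 FPKM in 20M. In edgeR it was lower than the mean of the other 8 leukemias in JW14 (log2 difference -0.96, SE 0.17, adjusted p = 0.000545), 8633 (-0.60, adjusted p = 0.0089) and 5C (-0.43, adjusted p = 0.045), and higher in 20M (0.45, adjusted p = 0.0263). Irf1, an early transcription factor of the interferon gamma response, varied most of the regulators. It was at 5.99 FPKM in 5C, 7.58 FPKM in 8633 and 8.21 FPKM in JW14, and between 18.7 and 29.2 FPKM in the other 6 leukemias, so that the values of these 3 leukemias did not reach the rest. Its log2 difference was -1.57 in 5C (SE 0.19, adjusted p = 3.15e-05) and -1.15 in 8633, and 0.99 in both 2M and 78A. Irf7, which amplifies the production of type I interferon, was low in all 9 leukemias, from 0.911 FPKM in JW14 to 2.37 FPKM in 73M. Irf9, the DNA-binding part of the ISRE complex, was at 2.86 FPKM in JW14 and 5.52 FPKM in 20M, and passed the test in those leukemias alone (log2 difference -0.47, adjusted p = 0.0186, and 0.51, adjusted p = 0.00762).

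Among the sensors of foreign nucleic acid, Zbp1, which recognises Z-form nucleic acid and can start necroptosis, spread furthest. It was at 0.436 FPKM in 5C, 3.87 FPKM at the median and 5.25 FPKM in 78A, and its log2 difference in 5C was -2.84 (SE 0.18, adjusted p = 1.43e-07). Ddx58, which encodes the RNA sensor RIG-I, was at 4.03 FPKM in 5C and 9.58 FPKM in 20M. Its relatives Ifih1 (MDA5) and Dhx58 (LGP2) were below 1 FPKM on average, with means of 0.797 and 0.909 FPKM. Oas1a, Oas2 and Oas3 encode oligoadenylate synthetases, which make the messenger that switches on RNase L, and Oasl1 and Oasl2 encode related proteins. Oas1a, Oas2, Oas3, Oasl1 and Oasl2 had means of 0.105 to 0.991 FPKM and none was tested, and Oas2 and Oas3 were highest among the 9 in JW81, at 1.85 and 2.20 FPKM. Of the 100-base windows of the longest Oas1a transcript 40.9% also occur in Oas1g, so reads of this pair could be split in the counting.

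The antiviral effectors did not move as a block. Ifit2, which binds viral RNA and restrains its translation, had 22.8 FPKM in 5C, 11.7 FPKM at the median and 1.89 FPKM in JW81. The next lowest of the 9 was 2M at 7.88 FPKM. Its log2 difference was 1.39 in 5C (SE 0.08, adjusted p = 9.13e-08) and -2.58 in JW81 (SE 0.12, adjusted p = 8.24e-09), which is the opposite order to that of the score, where JW81 stood above 5C. Its neighbours on chromosome 19, Ifit1 and Ifit3, had means of 0.170 and 0.446 FPKM, and 31.7% of the 100-base windows of Ifit3 are shared with Ifit3b. Mx2, a dynamin-like GTPase, had 0.378 FPKM in 8633, 1.19 FPKM at the median, 7.35 FPKM in 73A and 8.18 FPKM in 73M. The last 2 leukemias were high against the rest (log2 difference 2.41, SE 0.25, adjusted p = 1.64e-05, and 2.65, SE 0.23, adjusted p = 3.99e-06) and 8633 was low (-2.33, adjusted p = 0.00036). Mx1, its paralog next to it on chromosome 16, was also highest of the 9 in 73M (3.96 FPKM) with a median of 0.315 FPKM. Bst2 (tetherin, which holds budding viruses on the cell surface) was higher in JW81 (log2 difference 1.30, adjusted p = 0.000134) and 78A (0.91, adjusted p = 0.00311) and lower in 20M (-0.77, adjusted p = 0.0128). Samd9l was at 12.9 to 20.9 FPKM and Isg20, an exonuclease, at 1.07 to 3.86 FPKM. Rsad2 (viperin) had a mean of 0.279 FPKM, with 1.24 FPKM in 73M and 0.0891 FPKM at the median.

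The widest spread was in the genes of the ubiquitin-like modifier ISG15 and of ADP-ribosylation. Usp18, which removes ISG15 from proteins and blocks the type I receptor, had the largest SD of the 40 genes over leukemias (1.46 on the log2(FPKM + 1) scale). It was at 0.656 FPKM in 5C, 0.777 FPKM in 8633, 3.17 FPKM in JW14 and 8.08 FPKM in JW81, and between 11.8 and 22.5 FPKM in the other 5. In edgeR it was lower in 5C (log2 difference -3.84, SE 0.63, adjusted p = 0.000329) and 8633 (-3.31, SE 0.56, adjusted p = 0.00041), while JW14 did not pass (-0.81, adjusted p = 0.147). Isg15, the modifier itself, had 0.283 FPKM in JW14, 1.69 FPKM at the median and 3.47 FPKM in JW81, with log2 differences of -2.38 in JW14 (adjusted p = 0.00054) and 1.92 in JW81 (adjusted p = 5.93e-05). Parp14, an ADP-ribosyltransferase, was at 1.46 FPKM in JW14, 1.75 FPKM in 8633 and 1.92 FPKM in 5C, and at 7.31 FPKM or more in the other 6 leukemias. Each of those 9 contrasts passed the test, from -1.93 (JW14, adjusted p = 6.96e-07) to 1.22 (20M, adjusted p = 3.27e-06). Dtx3l and Parp9 lie head to head on chromosome 16 and share 458 bases of exon, so that without strand information some reads cannot be told apart. Parp9 was at 4.94 FPKM in JW14 and 15.3 FPKM in JW81, and Trim25, a ubiquitin ligase that activates RIG-I, at 10.6 FPKM in 5C and 19.4 FPKM in 2M.

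The interferon-inducible GTPases attack the vacuoles of intracellular pathogens. Igtp was at 3.81 FPKM in JW14, 4.96 FPKM in 5C and 5.12 FPKM in 8633 and at 17.3 to 26.3 FPKM in the other 6, with log2 differences of -1.87 (SE 0.21, adjusted p = 1.54e-05), -1.53 and -1.48 in the first 3. Gbp2 had 0.996 FPKM in JW14 and 8.23 FPKM in 73M, with log2 differences of -2.18 (SE 0.19, adjusted p = 2.51e-06) and 1.16 (SE 0.13, adjusted p = 3.6e-05). Gbp3 was at 1.94 to 4.83 FPKM. Irgm1, which keeps the other GTPases off the cell's own membranes, followed another order, with the lowest value in 2M (2.47 FPKM, log2 difference -0.91, adjusted p = 0.000352) and the highest in JW81 (6.90 FPKM).

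The antigen processing genes lie side by side on chromosome 17 and were, with Ifit2 and Samd9l, the genes of the list called higher in 5C. Tap1, a subunit of the peptide transporter, was at 10.8 FPKM in JW14 and 24.0 FPKM in 5C, and Psmb9, a further immunoproteasome subunit, was also lowest in JW14 (10.3 FPKM) and highest in 5C. All 3 were higher in 5C than in the mean of the other 8 leukemias, with log2 differences of 0.40 for Psmb8 (adjusted p = 0.000985), 0.66 for Tap1 (adjusted p = 0.000153) and 0.84 for Psmb9 (adjusted p = 2.08e-05). Tap1 and Psmb9 share 212 bases of exon on opposite strands. Of the remaining genes, Ifi35 was at 6.68 to 13.7 FPKM, Rtp4 at 0.626 to 2.31 FPKM and Xaf1, a partner of an apoptosis inhibitor, at 1.46 to 2.82 FPKM.

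Each leukemia was also compared with the mean of the other 8, gene by gene over the 28 tested genes. In JW14, 2 genes were higher and 18 lower, while 29% of all genes were higher and 26.7% lower. In 5C, 5 were higher and 16 lower (24.5% and 24.2% of all genes), the 5 being Psmb8, Psmb9, Tap1, Ifit2 and Samd9l. In 8633, 6 were higher and 13 lower (27.7% and 24.9%). In JW81, 12 were higher and 7 lower (20.1% and 18.0%), and in 2M 11 and 4 (21.2% and 14.3%). In 20M, 14 were higher and 4 lower (25.3% and 22.1%), in 78A 12 and 2 (17.0% and 9.65%) and in 73A 8 and 1 (19.3% and 14.4%). In 73M, 17 were higher and 0 lower (21.5% and 16.1%). At an unadjusted p under 0.05 1 was lower, with no share of all genes given at that threshold. The median log2 difference of the 28 genes was -0.57 in JW14, -0.51 in 5C and -0.29 in 8633, and between 0.28 and 0.46 in the other 6, with medians of all genes between -0.01 and 0.03. These contrasts share leukemias, so that they are not independent of each other. Leaving out 1 library at a time moved the counts, which ran from 0 to 7 higher in 8633 and from 3 to 13 higher in 2M.

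**Figure D3:**
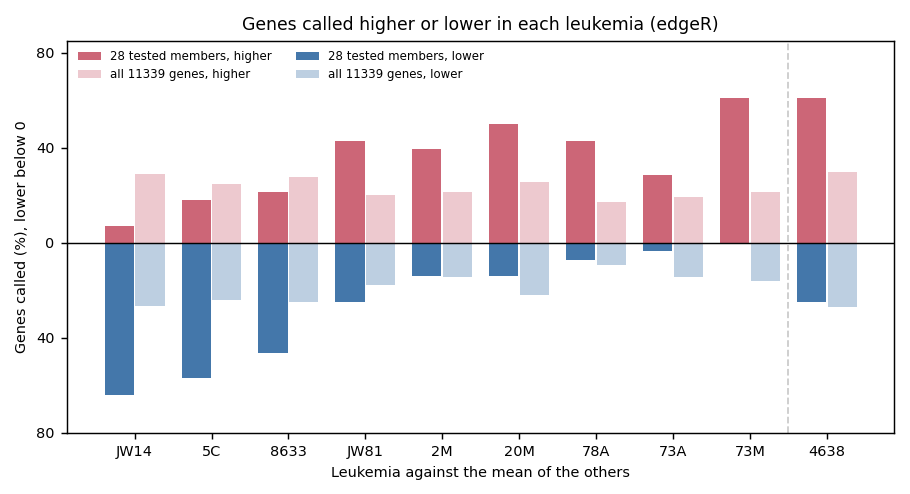
Share of the 28 tested interferon-stimulated genes (dark bars) and of all 11339 tested genes (pale bars) that edgeR called higher (red, above 0) or lower (blue, below 0) in each leukemia against the mean of the others. In JW14, 5C and 8633 the dark bars reach further down than up, and in 73M no tested gene of the list was called lower.

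Markers of other cells in the marrow moved in part with this order. The score of 12 macrophage markers was 0.77 in 8633, 0.82 in 5C and 0.85 in JW14, but also 0.84 in 20M, and it was highest among the 9 in 73A (1.58) and 73M (1.62). The score of 10 neutrophil markers was 1.25 in JW14, 3.70 in 8633 and 4.64 in 5C and 4.54 to 6.44 in the others. The T lineage score was 4.37 in 5C, 4.54 in JW14 and 4.60 in 8633, 4.81 in JW81, 4.82 in 73A and up to 5.77 in 20M. The score of 5 plasmacytoid dendritic cell markers was 0.35 in 8633, 0.38 in JW14 and 0.50 in 5C and 1.10 to 1.52 in the other 6. That of 9 B lineage markers was 0.08, 0.12 and 0.10 in 8633, JW14 and 5C and 0.18 to 1.07 in the other 6, so that for both lists the leukemias with the 3 lowest scores of the interferon-stimulated genes were also the lowest. The part of these cells in the levels of the interferon-stimulated genes was not tested.

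Leukemia 4638 stood apart from the 9. On the log2(FPKM + 1) scale its level was above that of every other leukemia for 21 of the 40 genes (52.5%), against 23.2% of 28872 genes in the fit without a filter. By mean FPKM it was so for 22, Trim25 being the further one. Among the 28 tested genes the log2 count was 10 (35.7%), against 19.5% of the 11339 tested genes. For 1 of the 40, Psmb8, it was below every other (32.6 FPKM). In a fit of all 10 leukemias, with the filter set on the other 9, 17 of the 28 tested genes were higher in 4638 than in the mean of the others and 7 were lower, beside 29.7% and 27.1% of all genes. The 7 were Psmb8, Psmb9, Ifit2, Dtx3l, Parp9, Ddx58 and Igtp. Without a filter, 23 of the 40 were higher and 8 lower, beside 20.2% and 14.3% of genes, and in that fit the log2 differences of the tested genes were 0.15 lower at the median, since the scaling of the libraries moved.

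The 12 genes below the filter had log2 differences of 1.89 (Dhx58) to 5.80 (Oasl2) between 4638 and the mean of the others in the fit without a filter. They fell below the filter because their mean over the other 9 leukemias was low, which by itself favours a higher value in 4638. No range is given here for all genes below the filter. Ifi44 had 2.07 FPKM in 4638, against 0.112 FPKM in 73M, the highest of the 9. Oasl2 had 3.12 FPKM against at most 0.339 FPKM, Ifit1 2.36 FPKM against at most 0.310 FPKM and Rsad2 3.96 FPKM against at most 1.24 FPKM. Oas1a reached 9.45 FPKM in 4638 and at most 1.48 FPKM elsewhere, and Ifih1 6.02 and 1.84 FPKM. Both libraries of 4638 were high in each of these genes. Among the regulators, Irf7 was at 8.08 FPKM against at most 2.37 FPKM (log2 difference 2.17, SE 0.11, adjusted p = 7.11e-09), Irf9 at 9.69 FPKM (1.28, SE 0.12, adjusted p = 1.28e-06) and Stat2 at 6.95 FPKM (0.95, SE 0.14, adjusted p = 7.09e-05), while Irf1, at 13.8 FPKM, did not pass (-0.23, adjusted p = 0.264). Usp18 was at 3.38 FPKM and did not pass with the filter (-0.97, SE 0.44, adjusted p = 0.075), but was called lower without it (adjusted p = 0.011). Isg15 (1.70, adjusted p = 0.000111), Bst2 (1.38, adjusted p = 2.2e-05) and Mx2 (1.96, adjusted p = 1.95e-05) were higher.

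The marrow of 4638 also held more RNA of other cells. Of the macrophage markers 11 of 12 were above every other leukemia, with a score of 3.04 against 0.77 to 1.62. Adgre1 (F4/80) was at 10.7 FPKM against 0.196 to 1.55 FPKM and C1qa at 18.6 FPKM against 1.49 to 5.03 FPKM. All 10 neutrophil markers, 9 of 9 B lineage markers and 6 of 7 erythroid markers were also highest there, with scores of 7.76, 1.88 and 3.64 against at most 6.44, 1.07 and 3.05. Of the T lineage markers 7 of 12 were lowest in 4638. Of the markers of plasmacytoid dendritic cells, which make much type I interferon, 2 of 5 were highest in 4638, Siglech at 2.90 FPKM among them. The score of the list was 0.86, against 0.35 to 1.52 in the 9 leukemias. Only 2 of the 5 markers reached the filter, so this score does not settle whether such cells were more or less frequent in 4638. The part of these cells in the result was not tested.

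The DEX columns were compared with the VEH columns in the 9 leukemias, with the leukemia as a block. The score hardly differed, with a mean DEX minus VEH difference of -0.01 ± 0.08 (SD, n = 9 leukemias) that was above 0 in 5 of 9, from -0.19 in 73M to 0.10 in 78A. The mean was 0.04 in the 4 leukemias without a library with ribosomal RNA counts and -0.06 in the 5 with one, and without 73M it was 0.01. Of the 28 tested genes, 5 were higher in DEX columns and 0 lower in edgeR, beside 6.22% and 6.79% of all genes. At an unadjusted p under 0.05 in edgeR, 8 were higher and 4 lower, and no share of all genes is given at that threshold. DESeq2 called 7 higher and 0 lower at an adjusted p under 0.05, beside 9.02% and 10.1% of all genes. In edgeR the count of higher genes was 5 without 8633, 6 without JW14 and lowest, at 2, without 2M, where 4.95%, 5.60% and 3.12% of all genes were higher. The log2 fold change was above 0 in 11 genes and below 0 in 17, with a median of -0.06, against 0.0039 for all genes. The DEX and VEH values overlapped in every gene of the list. The share of all genes with separate ranges was not counted, so this says nothing particular about the list. Without a filter, 4 of the 40 were higher (Mx1, Mx2, Usp18 and Ifi35) and 1 lower (Oas2), beside 2.66% and 3.63% of 28697 genes.

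**Figure D4:**
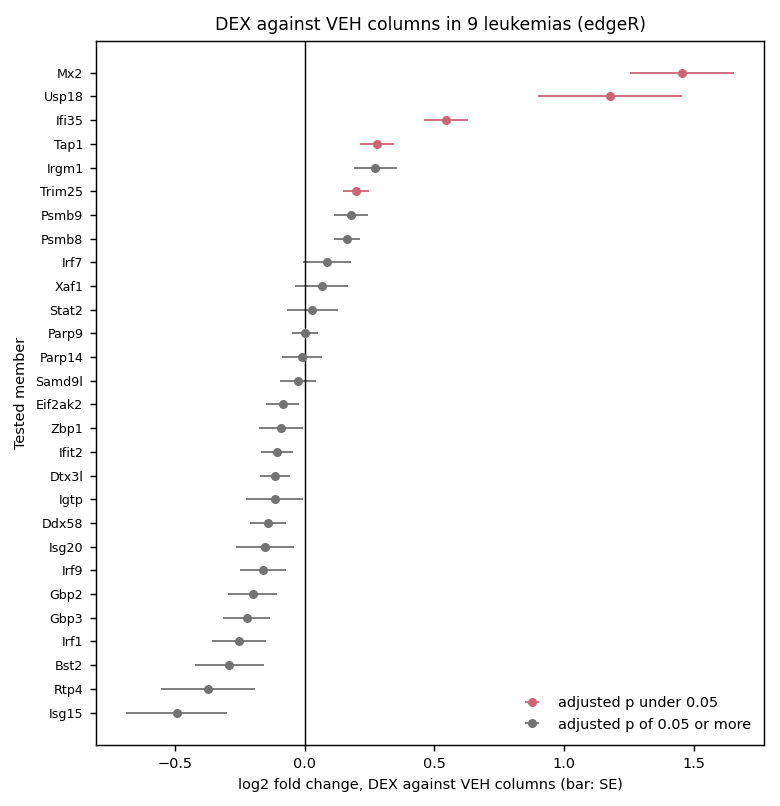
edgeR log2 fold change of the DEX against the VEH columns (horizontal axis) of the 28 tested genes over 9 leukemias, with bars of 1 SE; red marks an adjusted p under 0.05. Mx2, Usp18, Ifi35, Tap1 and Trim25 pass, and Isg15 has the lowest value at -0.49.

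Mx2 (chr16:97535308-97560900, mm10, plus strand) showed the largest difference. It ranged from 0.186 to 4.66 FPKM in the VEH libraries (median 0.608) and from 0.570 to 11.7 FPKM in the DEX libraries (median 1.84). The DEX library was the higher one in 8 of 9 leukemias, by a ratio of 1.88 (JW14) to 4.46 (78A), the exception being 5C (2.01 and 1.91 FPKM). The log2 fold change was 1.45 (SE 0.20, adjusted p = 0.00227). In 4638 it was 4.07 FPKM in VEH and 7.87 FPKM in DEX. Mx1, which was too low for the filter, moved the same way. It was higher in DEX in 8 of 9 leukemias, with a median of 0.187 FPKM in VEH and a highest value of 1.77 FPKM in VEH and 6.14 FPKM in DEX, with a log2 fold change of 1.21 (SE 0.23, adjusted p = 0.000827) in the fit without a filter. Mx1 and Mx2 share 1.25% and 1.72% of their 100-base windows.

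Usp18 (chr6:121245906-121270917, mm10, plus strand) was at 0.571 to 12.1 FPKM in VEH libraries (median 6.43) and 0.741 to 33.0 FPKM in DEX libraries (median 20.3), and its groups overlapped. The ratio of DEX to VEH was 6.10 in 73A, 4.01 in 2M, 2.83 in 20M, 2.72 in 78A and 2.36 in 73M, but 1.30 in 5C, 1.11 in 8633, 0.912 in JW81 and 0.879 in JW14. Whether the leukemias differed in this ratio was not tested, since each has 1 library of a kind. The log2 fold change over the 9 was 1.18 (SE 0.28, adjusted p = 0.0203). It missed the threshold without 20M (1.10, adjusted p = 0.0618) and without 2M (1.04, adjusted p = 0.0566).

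Ifi35 (chr11:101448407-101458698, mm10, plus strand), whose product binds the related protein Nmi, was higher in the DEX library in 9 of 9 leukemias, at 6.18 to 11.1 FPKM in VEH and 7.18 to 17.8 FPKM in DEX, with ratios of 1.16 (JW14) to 1.84 (2M). Its log2 fold change was 0.55 (SE 0.08, adjusted p = 0.00393), and 290 of its exon bases overlap the antisense gene Gm11626. Tap1 (chr17:34187553-34197225, plus strand) was at 9.46 to 22.7 FPKM in VEH and 10.5 to 25.3 FPKM in DEX and was higher in DEX in 8 of 9 (0.28, SE 0.07, adjusted p = 0.0203). Trim25 (chr11:88999376-89020293, plus strand) was at 10.2 to 18.3 FPKM in VEH and 10.9 to 21.5 FPKM in DEX and was higher in 8 of 9 (0.20, SE 0.05, adjusted p = 0.027). Both calls were near the threshold. The adjusted p of Tap1 was 0.0516 to 0.0553 without 20M, 2M or 73A, with log2 fold changes of 0.25 to 0.26, and that of Trim25 was 0.0529 to 0.0712 without 2M, 73A, 73M, 78A or JW81, with log2 fold changes of 0.18 to 0.19. Without a filter neither was called (adjusted p = 0.0602 for Tap1 and 0.228 for Trim25). None of Tap1, Trim25 and Ifi35 had an ISRE core in the promoter window, and Ifi35 had the GAS letters.

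**Figure D5:**
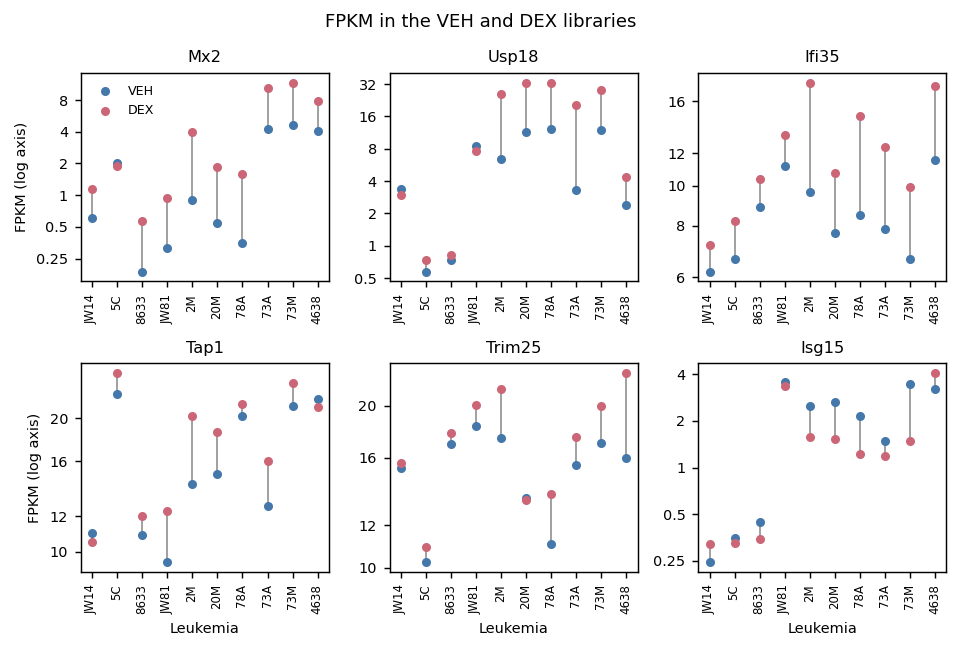
FPKM (log axis, scaled per gene) in the VEH (blue) and DEX (red) libraries of each leukemia for the 5 genes called in the DEX columns and for Isg15. Red lies above blue in 8 of 9 leukemias for Mx2 and in 9 of 9 for Ifi35, and Isg15 is below it in 8 of 9.

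No tested gene was called lower. The lowest was Isg15, at 0.245 to 3.56 FPKM in VEH (median 2.16) and 0.322 to 3.38 FPKM in DEX (median 1.22), with a log2 fold change of -0.49 (SE 0.19, adjusted p = 0.106). The regulator Irf1 was lower in DEX in 8 of 9 leukemias (-0.25, SE 0.10, adjusted p = 0.123) and passed the test without JW81 (-0.35, adjusted p = 0.018). Stat2, Irf7 and Irf9 had log2 fold changes of 0.03, 0.08 and -0.16 (adjusted p = 0.864, 0.558 and 0.231). Oas2 was lower in the fit without a filter (-0.79, SE 0.18, adjusted p = 0.00687), with a lower DEX value in 7 of 9 leukemias. The largest step was that of 73M, from 2.71 to 0.682 FPKM. In the same leukemia the DEX library had lower scores of erythroid (-2.31), neutrophil (-1.25) and B lineage (-0.99) markers than the VEH library, and their part in the value was not tested. By role, the mean DEX minus VEH score difference was -0.11 in the regulators, -0.12 in the sensors and -0.09 in the GTPases. Each of these groups was higher in DEX in 2 of 9 leukemias. The mean was 0.03 in the antiviral effectors, 0.08 in the ISG15 and ADP-ribosylation genes and 0.05 in the remaining genes. Each of those groups was higher in 6 of 9. The antigen processing genes, as a group of 3, were higher in DEX in 9 of 9 leukemias by 0.15 ± 0.09 (SD) on the log2(FPKM + 1) scale. Of them Tap1 passed the test in edgeR (Psmb8 0.16, adjusted p = 0.0518, and Psmb9 0.18, adjusted p = 0.0878). DESeq2 also called Psmb8 (adjusted p = 0.0138). In 4638 the group was lower in DEX (-0.15), with ratios of 0.959 for Tap1, 0.770 for Psmb8 and 0.985 for Psmb9. Irgm1 was higher in 9 of 9 as well (edgeR, 0.27, SE 0.08, adjusted p = 0.0503), mostly so in JW81, from 5.07 to 8.72 FPKM. It was called by DESeq2 (adjusted p = 0.0253) and by edgeR over 10 leukemias with the filter also set on all 10 (0.33, adjusted p = 0.0311).

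The libraries with ribosomal RNA counts bear on this comparison, since they were DEX libraries in 4 of the 5 leukemias. With a term for them, 3 of the 5 genes were still called, namely Mx2, Usp18 and Ifi35, beside 2.12% of all genes higher and 1.98% lower. The log2 fold changes of Tap1 and Trim25 in that fit were 0.28 and 0.21 (adjusted p = 0.0604 and 0.0666). In the 4 leukemias without such a library Mx2, Usp18 and Ifi35 passed, beside 2.23% of all genes higher and 1.96% lower, with log2 fold changes of 1.82, 1.75 and 0.68. In the 5 leukemias with one, 0 of the 28 passed in edgeR, beside 0.0882% of all genes higher and 0.0441% lower. The log2 fold changes there were 1.15 for Mx2 (adjusted p = 0.122), 0.69 for Usp18 (adjusted p = 0.209) and 0.43 for Ifi35 (adjusted p = 0.123). At an unadjusted p under 0.05, 5 of the 28 were higher, with no share of all genes given at that threshold. The log2 fold changes of Irf1, Isg15 and Irgm1 were -0.27, -0.56 and 0.22 without such leukemias and -0.24, -0.44 and 0.31 in those with one. For Mx1 and Oas2 the fit without a filter was run over all 9 leukemias only. Whether the log2 fold changes differed between these sets of leukemias was not tested.

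Other genes of the pathway were read against the same 6.22% of all genes called higher and 6.79% called lower in DEX columns. The ligands were at or near 0: over the 9 leukemias the highest level of Ifnb1 was 0.0292 FPKM, of Ifna1 0.0296, of Ifnl2 0.0330 and of Ifng 0.0230 FPKM, Ifna4, Ifna5 and Ifnl3 were listed at 0, and Ifng was at 0.141 FPKM in 4638. The receptors were well expressed. Ifnar1 had a mean of 11.9 FPKM, Ifnar2 of 12.3 FPKM and Ifngr2 of 3.69 FPKM, and Ifngr1 ranged from 18.2 FPKM in JW14 to 346 FPKM in 5C. Of the 10 tested receptor, kinase and STAT genes, 2 were higher in DEX columns, the kinases Jak1 (log2 fold change 0.25, SE 0.05, adjusted p = 0.0115) and Jak2 (0.30, SE 0.09, adjusted p = 0.0446). Of 6 inhibitors of the pathway, the phosphatase Ptpn6 was lower (-0.32, SE 0.09, adjusted p = 0.0406) and none was higher. Of 12 tested genes that induce interferon, Tlr7, a sensor of single-stranded RNA, was higher (1.00, SE 0.23, adjusted p = 0.0194) and Tmem173, which encodes STING, was lower (-0.22, SE 0.06, adjusted p = 0.0318). Of 22 tested interferon-induced genes outside the list of 40, Ly6e was higher (0.39, SE 0.06, adjusted p = 0.0051) and Gbp4 lower (-0.30, SE 0.09, adjusted p = 0.0434). Of 10 MHC class I and peptide loading genes, Tap2, the partner of Tap1, was higher (0.51, SE 0.09, adjusted p = 0.00651). With a term for libraries with ribosomal RNA counts, Jak1, Tlr7, Tmem173, Ly6e and Tap2 still passed in edgeR, while Jak2, Ptpn6 and Gbp4 had an adjusted p of 0.14 to 0.175. In the leukemias without such a library Jak2, Ptpn6 and Tlr7 passed, and in those with one the adjusted p of all these genes was 0.107 to 0.345, each with the sign it had over the 9 leukemias.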

How the data were processed

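Poly(A) RNA from bone marrow was made into TruSeq libraries and sequenced as paired ends on an Illumina HiSeq. The authors aligned the reads to mm10 with Bowtie 2 and deposited a table of RSEM expected counts, although its name speaks of FPKM. The RSEM version, the annotation and the use of strand are not given in the sources used here. Of its 20 columns 0 lacked a sample or group. The DEX columns of 73A and 4638 were matched by the leukemia alone, and that of 2M differs from its title by 1 letter.

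Expected counts were rounded. FPKM used the merged exon lengths of GENCODE M21, known for 37693 of 39017 genes. Genes averaging 1 FPKM or more over 18 libraries were scaled by TMM and tested in edgeR 4.0.16 (R 4.3.3) by the quasi-likelihood test with Benjamini-Hochberg adjustment over all genes at 0.05. The leukemia was the block of the comparison of DEX with VEH columns, since the libraries of a number come from the same leukemia. SEs were derived from the F statistics. The leukemia effect and the contrast of each leukemia with the mean of the other 8 came from the same counts. Leukemia 4638 was compared with the others in a fit of 10 leukemias with the filter set on the other 9, added after its values were seen, and its p-values rest on 2 libraries of 1 leukemia. Alternatives were no filter, DESeq2 1.42.0 and its size factors, no block, a term for libraries with ribosomal RNA counts, 10 leukemias with the filter set on all 10, other scores, and leaving out each leukemia or library. The score was given no test. Some items are not reported here.

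All 40 genes were described by role, with full values for the 4 regulators, the genes called between columns, the 6 with the largest SD over leukemias and the 3 highest and 3 lowest by mean FPKM. The members and lists were chosen with earlier results of these data known. Depth was 8226528 to 201222288 counts with a median of 24451898.5, and limits from counts cover counting error only. Scripts were tested on simulated data. Python 3.11.15, pandas 2.3.3, numpy 2.4.6 and matplotlib 3.10.9 were used.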

Additional observations from a re-analysis of the deposited data

Results flagged for a closer look

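In each gene and in the score, the sample farthest from the others was looked for by Dixon's test at the 95% level, which chance passes in about 1 of 20 groups. Over the 9 leukemias this gave 1 of 41 levels and 4 of 41 DEX minus VEH differences, and over 10 leukemias 15 of 41 and 5 of 41. All values are on the log2(FPKM + 1) scale. No explanation of any of them was tested.

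With 4638 among the 10 leukemias, its level stood far above the others for Irf7 (3.17), Irf9 (3.42), Ifih1 (2.79), Eif2ak2 (3.74), Oas1a (3.38), Oas2 (2.82), Oas3 (3.11), Oasl1 (2.09), Oasl2 (2.04), Ifit1 (1.74), Ifit3 (2.52), Rsad2 (2.28) and Ifi44 (1.59), and far below them for Psmb8 (5.06). The level of Ifit2 in JW81 (1.53) was far below the others among both 9 and 10 leukemias.

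In DEX minus VEH differences, 73M stood far below the others for Oas2 (-1.14) and Rsad2 (-1.16) among 9 and 10 leukemias, for Oasl2 (-0.30) among 9 and for the score (-0.19) among 10. JW81 stood above the others for Irgm1 (0.68) among 9. Among 10 leukemias, 4638 stood below the others for Psmb8 (-0.37) and above them for Ifi44 (0.60).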

How the results depend on the processing

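Of the values that answer a comparison, 467 under alternatives stayed close to the value reported (a count or share within 1.5 times of it, a score within 1 SD) and 79 moved, and of the values of single genes 75 kept their side of the threshold, 26 lost it and 1 gained it. None reversed. In the comparison of DEX with VEH columns, a term for libraries with ribosomal RNA counts gave 3 of the genes higher (2.12% of all genes higher and 1.98% lower), the leukemias without such a library 3 (2.23% and 1.96%) and those with one 0 (0.0882% and 0.0441%). No filter and the fit of 10 leukemias gave 1 gene of the list lower each, Oas2. In the latter the filter was set on all 10, and Oas2 (0.789 FPKM over the 9) passed it through its level of 6.05 FPKM in 4638, as did Ifih1, Dhx58, Oas1a, Oas3 and Mx1 through theirs. Without a filter 2.66% of all genes were higher and 3.63% lower. Without a filter 73A had 2 lower and JW14 had 1 higher, DESeq2 size factors gave JW14 1 higher, and with 10 leukemias 73M had 1 lower. The mean score was 1.45 with a pseudocount of 0.1 and 2.62 in TPM. The scaling without a filter shifted the median difference of all tested genes by -0.11 in 73A, 0.12 in 8633 and -0.15 in 4638.

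With no replicate block, that is, without the pairing by leukemia, 0 of the 28 genes were higher in edgeR, and 0.0441% of all genes were higher and 0.0265% lower. At an unadjusted p under 0.05 1 of the 28 was higher, with no share of all genes given at that threshold. The pairing comes from the leukemia named in the labels.

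Leaving out 1 leukemia or library gave 2 to 6 genes of the list higher and 0 to 1 lower in DEX columns (2.82% to 9.03% and 2.95% to 8.97% of all genes), 26 to 27 for the leukemia effect, a mean score of 2.16 to 2.26 and a DEX minus VEH difference of -0.03 to 0.01. For each leukemia the higher and lower counts ran from 8 to 14 and 1 to 5 in 20M, 3 to 13 and 1 to 4 in 2M, 5 to 5 and 12 to 16 in 5C, 4 to 10 and 0 to 2 in 73A, 12 to 17 and 0 to 1 in 73M, 8 to 13 and 0 to 2 in 78A, 0 to 7 and 10 to 14 in 8633, 1 to 2 and 14 to 20 in JW14, 10 to 12 and 2 to 8 in JW81, and 12 to 18 and 5 to 8 in 4638. The cause of these changes was not tested. Where a library is left out its partner is assumed to vary like the other leukemias. Depth limits the genes under 1 FPKM.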

Other observations

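Interferon-linked genes outside the list of 40 had their highest values in 4638 in several cases. Ifitm3, which keeps viruses from fusing with the cell, was at 81.9 FPKM in 4638 and at 0.652 to 16.5 FPKM in the 9 leukemias. The transcription factors Irf5 and Irf8 were at 11.9 and 13.5 FPKM, against at most 2.30 and 3.82 FPKM. Tlr7 was at 9.03 FPKM against at most 3.65 FPKM and Cmpk2 at 6.54 FPKM against at most 1.45 FPKM. Of the 28 further interferon-induced genes 11 were highest in 4638 (39.3%) and 3 lowest (10.7%), and of the 15 genes of interferon induction, to which Irf5, Irf8 and Tlr7 belong, 7 were highest (46.7%) and 0 lowest. Of all genes in the fit without a filter 23.2% were highest and 7.79% lowest, and of the tested genes 19.5% and 16.6%. Macrophages and B cells also express several of these genes, and their part in the values was not tested.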
